A study of Mus musculus with 4 samples.

Results

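The clustered histone genes were followed in CD45+ (white blood) cells of Peyer's patches, lymphoid tissue in the wall of the mouse gut. The genes were taken by name: every gene of the count matrices whose symbol starts with Hist1h, Hist2h, Hist3h or Hist4h, which gave 67 of 31053 genes. Of these, 54 lie in the Hist1 array on chromosome 13, 10 in the Hist2 array on chromosome 3, 2 in the Hist3 group on chromosome 11 and 1, Hist4h4, on chromosome 6. By product they are 6 genes for the linker histone H1, 18 for H2A, 18 for H2B, 12 for H3 and 13 for H4. Their unique molecular identifiers (UMIs, tags that count captured RNA molecules once) were summed per library and per cluster of the authors' cell table.

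Both groups were wild-type female mice from Taconic. SFB-negative mice lacked segmented filamentous bacteria, gut commensals that attach to the epithelium of the ileum, and SFB-positive mice carried them; the age is not given in the sources used here. CD45+ cells were sorted and sequenced as 3' single-cell RNA libraries, 2 libraries a group, with 5 mice pooled, 6000 cells loaded and 4000 cells targeted per the labels. The labels do not say if the replicates come from different pools, so p-values measure only the spread between these libraries, which may be technical.

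Replicate 1 and replicate 2 libraries stood apart in both groups. The table held 4050 and 7731 cells of SFB-negative replicates 1 and 2, and 3408 and 7380 cells of SFB-positive replicates 1 and 2. Median UMIs per table cell were 1267 and 3252 in the SFB-negative and 1280 and 5864 in the SFB-positive libraries. Both replicate 1 matrices carry Cell Ranger 6.0.0 in their headers and 15 antibody tags, and both replicate 2 matrices carry 7.0.0 and none. Libraries of different numbers shared at most 1 cell barcode, whereas the replicate 1 pair shared 30 and the replicate 2 pair shared 40. B-cell markers made up 29.4 to 63.8 per 10000 UMIs of the table cells and T-cell markers 0.105 to 0.230, so the table held B-lineage cells. Clusters are called here by number. Leading genes of cluster 0 included Ighd and Cd55. Cluster 1 led with Hspa1a, Klf2, Jun and Fos, cluster 2 with Srm and Mir155hg, cluster 3 with Pclaf, Birc5, Stmn1 and Rrm2, cluster 4 with Ccr1, Fcrl5 and Plac8, and cluster 6 with Igha and Jchain. Histone genes were among the leading genes of cluster 5, so its histone level is a description of how it was drawn. Germinal-centre markers summed to between 34.7 and 50.5 per 10000 UMIs in cluster 3 of the 4 libraries, and to at most 2.21 in cluster 0. In cluster 5 of the replicate 2 libraries they summed to 37.9 (SFB-negative) and 44.3 (SFB-positive), within the range of cluster 3.

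Histones are the proteins that DNA is wound around: H2A, H2B, H3 and H4 form the core of the nucleosome and H1 binds the linker between nucleosomes. Most genes of the clusters are replication-dependent, made in bulk during S phase to package newly copied DNA. Their mRNAs typically lack introns and a poly(A) tail and end instead just after a short stem-loop, which the stem-loop binding protein Slbp holds. Some of the same genes are also made as polyadenylated mRNAs in cells that do not divide. The libraries were primed on poly(A), so the level of a histone gene here is the level of its captured molecules, and levels of different genes are not scaled by length or by how well a transcript is captured.

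The 3' end is where a histone mRNA differs from others, so it was read first. In the GENCODE M21 transcripts (GRCm38, the mm10 assembly), 46 of the 67 genes hold a match to the histone stem-loop after the coding sequence, a hairpin of 16 bases. The form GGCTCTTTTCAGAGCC was found in 26 genes and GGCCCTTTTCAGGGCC in 7, each of the 7 an H4 gene. Windows around the hairpin are shown for genes that lead the counts, with the hairpin in capitals. The same 16 bases stand in Hist1h1c, Hist1h1e, Hist1h2ae, Hist1h2ap and Hist3h2a, and Hist2h2ac, Hist1h3c and Hist1h4d carry other forms.
Hist1h1c, H1, chr13:23739508-23739537, plus strand: aaaaGGCTCTTTTCAGAGCCaccactccca
Hist1h1e, H1, chr13:23621772-23621801, minus strand: caaaGGCTCTTTTCAGAGCCacccacaact
Hist1h2ae, H2A, chr13:23570658-23570687, minus strand: caaaGGCTCTTTTCAGAGCCattcacttaa
Hist1h2ap, H2A, chr13:21833026-21833048, minus strand: aaaaGGCTCTTTTCAGAGCCatc
Hist3h2a, H2A, chr11:58955168-58955197, plus strand: caaaGGCTCTTTTCAGAGCCacccacaacc
Hist2h2ac, H2A, chr3:96220408-96220437, minus strand: aaaaGGCTCTTTTTAGAGCCaccaaatctt
Hist1h3c, H3, chr13:23745037-23745066, minus strand: aaaaGGCTCTTTTAAGAGCCacctaagatg
Hist1h4d, H4, chr13:23581946-23581975, plus strand: caaaGGCCCTTTTCAGGGCCactaccttct

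The annotated transcripts end at different distances after the hairpin. The transcript of Hist1h2ap stops 3 bases after the hairpin, that of Hist1h3c 74 bases and that of Hist2h2ac 57 bases. Those of Hist1h1c, Hist1h1e and Hist3h2a run on for 840, 1153 and 1643 bases. A poly(A) signal was searched as AATAAA or ATTAAA in the last 50 bases of any annotated protein-coding transcript of a gene. It was present in 17 of the 67 genes, among them Hist1h1c, Hist3h2a and Hist1h2ae. Of the 21 genes without a match, 17 have at most 50 annotated bases after the coding sequence, for example none for Hist1h1b (chr13:21779883-21780625, minus strand), so no match there says only that the annotated stretch is short.

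Promoters were searched for 3 motifs on both strands in windows of 300 bases from RefSeq (GRCm38.p6), 250 before and 50 after the start; 62 of 67 genes matched, with 63 promoters, and none of the motifs contains another. CCAAT was present in 85.7% of the histone promoters and in 37.4% of all 32851 promoters. TATAAA was present in 55.6% against 13.6%, and ATTTGCAT, the octamer known from histone H2B and immunoglobulin promoters, in 22.2% against 1.74%. The octamer was found in 7 of 18 H2A and 7 of 17 H2B promoters and in none of the H1, H3 and H4 promoters, whereas CCAAT was in every H1, H2A, H2B and H3 promoter and in 3 of 12 H4 promoters. Head-to-head pairs share a promoter, so these counts are not of independent sequences. The stretch between Hist1h2ae and Hist1h2bg, an H2A and an H2B gene transcribed away from each other, shows the 3 motifs together, and the stretch before Hist1h1b, the gene of highest mean level in cluster 3, shows CCAAT and TATAAA. Motifs are in capitals, and ATTGG is CCAAT on the other strand.
Hist1h2ae and Hist1h2bg, chr13:23571221-23571395, plus strand: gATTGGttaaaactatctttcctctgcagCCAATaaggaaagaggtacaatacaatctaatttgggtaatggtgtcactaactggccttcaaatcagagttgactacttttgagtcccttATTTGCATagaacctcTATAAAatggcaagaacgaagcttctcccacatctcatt
Hist1h1b, chr13:21780626-21780875, minus strand: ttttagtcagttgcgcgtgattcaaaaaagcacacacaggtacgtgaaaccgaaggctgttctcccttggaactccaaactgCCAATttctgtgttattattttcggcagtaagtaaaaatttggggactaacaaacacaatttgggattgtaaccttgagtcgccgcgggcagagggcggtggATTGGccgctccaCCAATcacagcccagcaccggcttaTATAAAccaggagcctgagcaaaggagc

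Together the clustered histone genes made up 4.23 and 38.8 per 10000 UMIs of the table cells of the SFB-negative libraries, replicate 1 first, and 5.18 and 15.3 in those of the SFB-positive libraries. The SFB-negative libraries thus held both the lowest and the highest value, and the 2 SFB-positive libraries lay between them. Within replicate number 2 the SFB-negative library was 2.54 times as high as the SFB-positive one; within number 1 it was 0.817 times as high. From number 1 to number 2 the level differed by 9.18 times among the SFB-negative and by 2.95 times among the SFB-positive libraries. The group values were 21.5 ± 24.5 and 10.2 ± 7.16 (SD, n = 2 each), and with 2 libraries a group an exact permutation test cannot reach 0.05.

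Cluster 3 had the highest histone level of clusters 0 to 4 and 6 in each library. There it was 8.23 and 80.2 per 10000 in the SFB-negative libraries and 9.54 and 30.2 in the SFB-positive ones. Cluster 0 of the same libraries had 3.77 and 26.5, and 4.41 and 8.19. Cluster 3 therefore stood 2.16 to 3.69 times above cluster 0 of its own library. Cluster 1 stood 1.30 to 1.57 times above cluster 0, and clusters 2 and 4 lay below cluster 0 in all 4 libraries, at 0.558 to 0.830 and 0.505 to 0.943 of its level. Clusters were drawn on these same cells, so the order is a description with no test. Cluster 5 held 258 and 209 cells in the replicate 2 libraries, 1 cell in SFB-negative replicate 1 and none in the fourth library; its histone level was 123.6 per 10000 in replicate 2 of the SFB-negative and 95.1 in replicate 2 of the SFB-positive group, at median depths of 1288 and 1115 UMIs a cell. Cluster 6, of 6 to 68 cells a library, ranged from 0.925 to 16.4 per 10000.

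**Figure D1:**
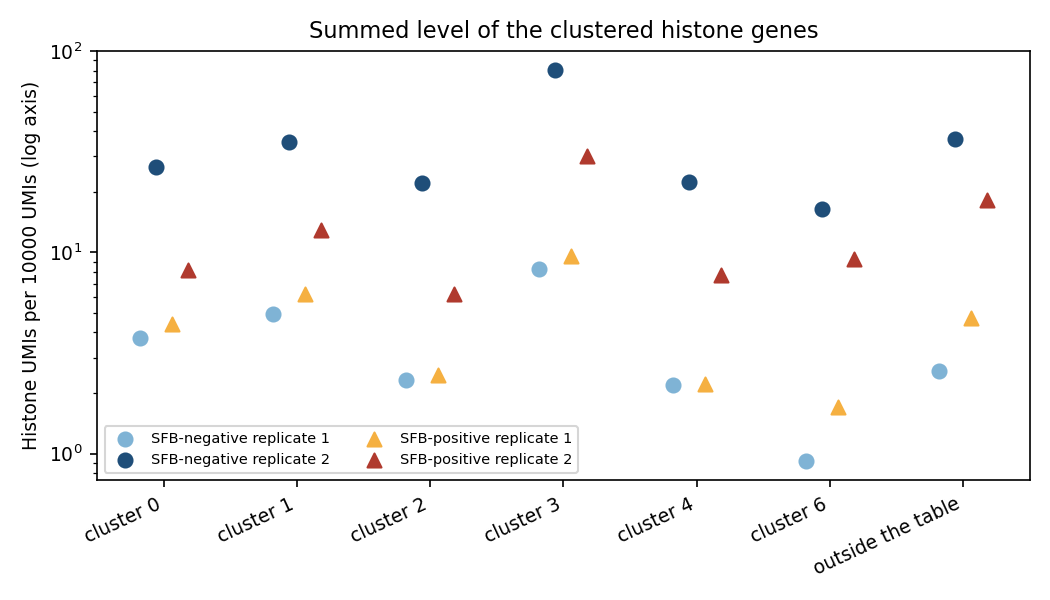
Histone UMIs per 10000 UMIs (log axis) in clusters 0 to 4, cluster 6 and barcodes outside the table; circles are SFB-negative and triangles SFB-positive libraries, 1 point a library. In every class SFB-negative replicate 2 is highest and SFB-negative replicate 1 lowest, and cluster 3 is the highest cluster shown in each library.

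Within cluster 3 a minority of cells held most histone molecules. In SFB-negative replicate 2, 148 of 719 cells (20.6%) had at least 50 histone UMIs and together held 84.3% of the cluster's histone UMIs. In SFB-positive replicate 2, 221 of 830 cells (26.6%) did so and held 87.3%. The median cell had 14 and 10 histone UMIs and the richest cell 732 and 428. No cell of cluster 0 in these libraries exceeded 46 and 24 histone UMIs, at median depths of 2962 and 5249 UMIs against 7359 and 17122 in cluster 3. In the replicate 1 libraries no cell of cluster 3 reached 50, and the richest cells had 32 and 33.

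The linker histone genes made up the most histone UMIs of cluster 3 in the replicate 2 libraries, at 43.7% in the SFB-negative and 49.7% in the SFB-positive one. In the replicate 1 libraries H2A genes did, at 55.6% and 67.6% against 20.9% and 16.3% for H1. Hist1h1b had 52.8 and 1606 counts per 1000000 UMIs (CPM) in cluster 3 of SFB-negative replicates 1 and 2, and 57.0 and 732 in the SFB-positive libraries. In cluster 0 it had 2.10 and 92.0, and 4.37 and 26.3. Hist1h1b was thus higher in cluster 3 in each library, and in both clusters the replicate 2 libraries were far above the replicate 1 libraries.

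Hist1h1e (chr13:23620629-23622558) had 55.7 and 1277 CPM in cluster 3 of the SFB-negative libraries, and 45.4 and 379.9 in the SFB-positive ones. In cluster 0 it had 18.6 and 910.1, and 23.8 and 224.5, which made it the leading histone gene of cluster 0 by mean level. Hist1h1e made up 34.3% and 27.4% of the histone UMIs of cluster 0 in the replicate 2 libraries and 4.92% and 5.40% in the replicate 1 libraries. Its gene model overlaps Hist1h2be and Gm11398 on the same strand and its annotated end is wholly shared with another histone gene, so the count of Hist1h1e is uncertain.

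Hist1h1c was the most even of the abundant H1 genes. It had 81.6 and 211.7 CPM in cluster 0 of the SFB-negative libraries and 85.5 and 187.0 in the SFB-positive ones. Cluster 3 had 46.9 and 216.7, and 32.7 and 187.4. Hist1h1c thus lay lower in cluster 3 than in cluster 0 in both replicate 1 libraries and at about the same level in both replicate 2 libraries. Hist1h1a, a further H1 gene, had 16.1 and 148.5 CPM in cluster 3 of the SFB-negative and 10.6 and 100.1 in that of the SFB-positive libraries. Hist1h1d had 0 and 255.5, and 9.50 and 103.9. The testis linker gene Hist1h1t had 7 UMIs over all barcodes.

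Among the H2A genes, Hist1h2ap and Hist3h2a did not follow the replicate number the way Hist1h1b did. Hist1h2ap had 356.5 and 272.7 CPM in cluster 3 of SFB-negative replicates 1 and 2, and 531 and 302.6 in the SFB-positive libraries. In the replicate 1 libraries it was the first histone gene of cluster 3, with 43.3% and 55.6% of all histone UMIs. Hist1h2ap is the only one of the 65 histone genes seen in table cells whose SFB-positive libraries both lay above both SFB-negative ones over all table cells, at 102.5 and 99.9 against 50.7 and 78.4 CPM; 6.63% of all genes did so. Hist2h2aa2 alone lay the other way, against 3.82% of all genes. The annotated end of Hist1h2ap is wholly shared with another histone gene, so its count is uncertain. Hist3h2a had 139.3 and 60.2 CPM in cluster 0 of the SFB-negative and 167.7 and 51.7 in that of the SFB-positive libraries, so both replicate 1 libraries were above both replicate 2 libraries. It was the first histone gene of cluster 0 in the replicate 1 libraries, at 36.9% and 37.996% of histone UMIs.

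Hist1h2ae followed the pattern of Hist1h1b. It had 38.1 and 531 CPM in cluster 3 of the SFB-negative and 53.8 and 357.5 in that of the SFB-positive libraries. Hist2h2ac had 8.80 and 223.5, and 10.6 and 78.1. Hist1h2ab had 1.47 and 100.6, and 0 and 42.3, and Hist1h2an 1.47 and 61.8, and 0 and 40.0. All of these H2A genes were thus higher in both replicate 2 libraries, and Hist1h2ab and Hist1h2an had at most 1 UMI in cluster 3 of a replicate 1 library.

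Of the H2B genes, Hist1h2bc was the most even. It had 76.3 and 57.5 CPM in cluster 3 of the SFB-negative and 58.1 and 41.1 in that of the SFB-positive libraries, and 40.96 and 66.7, and 54.9 and 37.6 in cluster 0. The groups of Hist1h2bc overlapped in cluster 0, and neither replicate number stood above the other there. Hist1h2bj, at 2.93 and 161.9, and 2.11 and 30.5 CPM in cluster 3, was higher in both replicate 2 libraries.

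The H3 genes Hist1h3e, Hist1h3c and Hist1h3i were at or near 0 in the replicate 1 libraries. Hist1h3e had no UMI in cluster 3 of either replicate 1 library, and 259.3 (SFB-negative) and 37.0 CPM (SFB-positive) in the replicate 2 libraries. Hist1h3e and Hist1h3f share their annotated ends, so their split is uncertain. Hist1h3c had 1.47 and 108.5, and 0 and 72.7 CPM in cluster 3, and Hist1h3i 1.47 and 71.2, and 0 and 19.1.

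The H4 genes differed most between the replicate 2 libraries. Hist1h4d (chr13:23581598-23582735) had 11.7 and 1418 CPM in cluster 3 of the SFB-negative and 8.45 and 103.7 in that of the SFB-positive libraries. Within number 2 this is a log2 difference of -3.77, and within number 1 of -0.47. Hist1h4h had 5.87 and 213.6, and 5.28 and 20.5 CPM, and Hist1h4c 0 and 112.2, and 3.17 and 18.0. Hist1h4i was an exception, with 45.5 and 49.9, and 37.0 and 50.2 CPM in cluster 3, so that its 4 libraries overlapped closely.

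**Figure D2:**
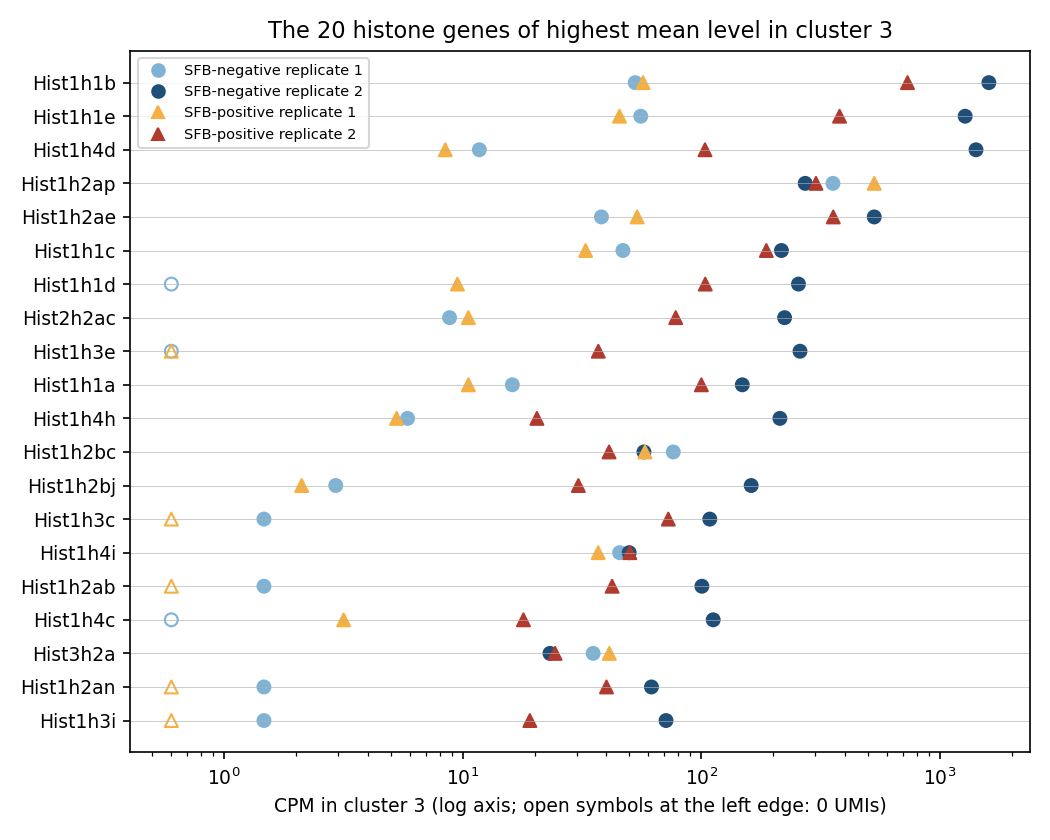
CPM in cluster 3 (log axis) of the 20 clustered histone genes of highest mean level, 1 point a library; open symbols at the left edge are libraries with 0 UMIs. Most genes are far higher in the replicate 2 libraries, whereas Hist1h2ap, Hist1h2bc, Hist1h4i and Hist3h2a lie close together in all 4.

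The rarest genes complete the set. Hist1h2aa and Hist1h2bq had no UMI in any barcode, which allows up to 3, and Hist1h2ba, Hist1h4m, Hist2h2aa2 and Hist1h1t had 1 to 7. The annotated ends of Hist1h2bq, Hist1h4m and Hist2h2aa2 are wholly shared with another histone gene.

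The contrast between replicate numbers was therefore not the same for all the genes. For the 23 genes with at least 20 UMIs in the replicate 1 libraries together, the mean CPM of the replicate 2 libraries over that of the replicate 1 libraries ran from 0.384 for Hist3h2a to 115.8 for Hist1h4d in table cells. Over 9921 genes with as many UMIs the median was 1.08, 13.9% were above 3 and 1.56% above 10. Hist1h1b, Hist1h1e, Hist1h1d and Hist2h2ac stood at 30.3, 26.5, 26.4 and 23.4. Hist1h2ap, Hist1h2bc, Hist2h4, Hist3h2ba and Hist1h4i stood at 1.16, 1.30, 1.54, 1.57 and 2.03, and Hist2h2be, Hist2h3c2 and Hist2h3c1 at 0.709, 0.557 and 0.553. Hist2h4 and Hist3h2ba are named here after their values were seen.

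Split by the annotated end, the 10 measured genes with a poly(A) signal had a median ratio of 1.80, and 2 of them, Hist1h4h and Hist1h2ae, were above 3. The 13 without a signal had a median of 8.31, and 8 were above 3. Having no signal does not mean ending at the hairpin. The annotated transcripts of Hist1h4d and Hist1h1e run on for 770 and 1153 bases after it, and that of Hist1h2ap for 3. This split was chosen after the ratios had been seen and is given with no test. The genes with a signal made up 60.1% and 53.3% of histone UMIs in table cells of the replicate 1 libraries, SFB-negative first, and 17.3% and 32.2% in those of the replicate 2 libraries. Cluster 0 went the same way, at 71.2% and 70.0%, and 18.6% and 39.9%. Cluster 3 had 23.7% and 19.7%, and 14.6% and 23.4%, so its SFB-positive pair went the other way. Median ratios with and without a signal were 1.12 (6 genes) and 1.43 (4 genes) in cluster 0. In cluster 3 they were 3.14 (4 genes) and 9.31 (5 genes).

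**Figure D3:**
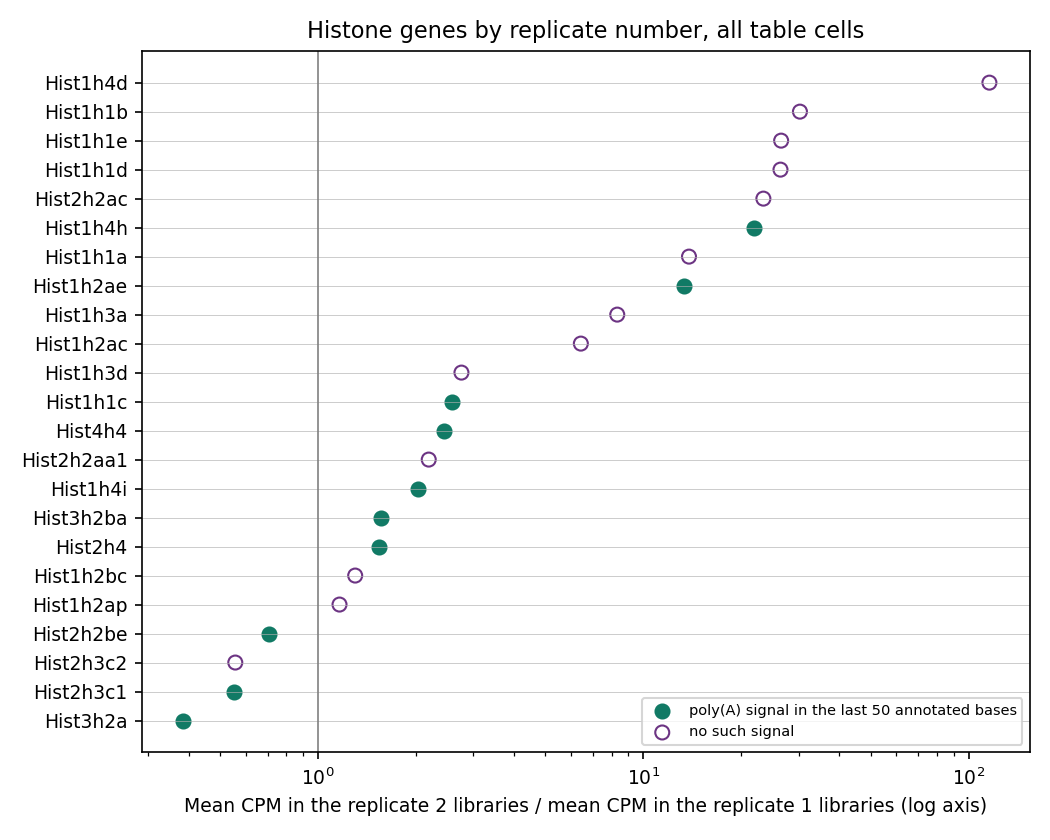
Mean CPM of the replicate 2 libraries over mean CPM of the replicate 1 libraries (log axis, all table cells) for the 23 histone genes with at least 20 UMIs in the replicate 1 libraries; filled points have a poly(A) signal in the last 50 annotated bases. Ratios run from 0.384 (Hist3h2a) to 115.8 (Hist1h4d), and 8 of the 10 filled points lie below 3.

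Transcripts linked to ribosomal RNA moved with the histone level between libraries, but not between cluster 3 and all table cells. AY036118, Gm42418, Gm26917, Lars2 and Cmss1, genes that overlap or resemble ribosomal RNA repeats, summed to 3.02 and 488 per 10000 UMIs of table cells in the SFB-negative and 3.10 and 52.5 in the SFB-positive libraries, the same order of libraries within number 2 as the histones. In cluster 3 they summed to 2.19 and 272.8, and 2.39 and 30.6, which was lower than over all table cells in each library. The histone level was higher in cluster 3 than over all table cells in each library. In cluster 5 of the replicate 2 libraries both levels were higher than over all table cells. There, SFB-negative first, the ribosomal-RNA-linked transcripts summed to 1773 and 1521 per 10000 UMIs and the histone genes to 123.6 and 95.1. Polyadenylated reference genes summed to 225.2 and 190.8 in table cells of the SFB-negative and 231.6 and 205.6 in those of the SFB-positive libraries. They were thus somewhat lower in both replicate 2 libraries. In cluster 3 they lay between 204.8 and 229.4 per 10000 UMIs. The S-phase list of 35 genes summed to 45.7 and 29.0 in the SFB-negative and 51.8 and 41.03 in the SFB-positive libraries, so the library with most histone UMIs had the lowest S-phase sum. The part of the ribosomal-RNA-linked transcripts, or of the replicate number, in the histone levels was not tested.

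The comparison of SFB-positive with SFB-negative mice gave no call without the replicate number in the model. In edgeR's quasi-likelihood test with Benjamini-Hochberg adjustment, 0 of 58 histone genes tested in table cells passed an adjusted p of 0.05, against 0% of all 12268 genes; 0 of the 58 had an unadjusted p under 0.05. The median log2 difference (SFB-positive minus SFB-negative) was -1.21 over the 58 genes and -0.02 over all genes. In clusters 0 to 4, 0 of 36, 34, 17, 44 and 15 histone genes passed, with 0, 0, 1, 0 and 0 at an unadjusted p under 0.05; DESeq2 called 0 as well, with 1 to 3 a class at an unadjusted p under 0.05.

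With replicate number as a term (a block), histone genes were called lower in SFB-positive libraries in each class. That fit left 1 residual degree of freedom, so its p-values rest largely on a spread shared over all genes. The 2 numbers also differed over table cells: 8 of 32 histone genes with at least 4 UMIs in both libraries were lower within number 1, and 55 of 61 within number 2. In table cells 30 of 58 fell, where 2.68% of all genes fell, and 0 rose, where 0.929% of all genes rose. In cluster 0, 19 of 36 fell against 1.92% of all genes, in cluster 1, 11 of 34 against 0.851%, and in cluster 2, 10 of 17 against 0.909%. In cluster 3, 27 of 44 fell against 0.972%, and in cluster 4, 8 of 15 against 1.25%. In these clusters 0 rose, against 0.236%, 0.13%, 0.258%, 0.375% and 0.282% of all genes. By family, 2 of 5 H1, 9 of 16 H2A, 9 of 16 H2B, 5 of 11 H3 and 5 of 10 H4 genes fell in table cells. Of the 15 tested genes with a poly(A) signal at the end, 3 fell. Hist1h3e, Hist1h4c, Hist1h4d and Hist2h2ac were called in all of clusters 0 to 4, and 32 genes in at least 1 of them.

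The called genes shared the library of highest level, SFB-negative replicate 2. Each of the 30 genes had its highest level in that library, and so did 54 of all 65 histone genes seen, against 24.8% of all genes. In cluster 3 it was 54 of 64, against 21.7%; there 2 genes, Hist1h3d and Hist1h4k, had both SFB-positive libraries below both SFB-negative ones, against 3.49% of all genes, and 0 above, against 8.19%. Without that library and without the block, the median log2 difference was 2.02 in table cells (46 genes) and 2.19 in cluster 3 (29 genes), but this sets SFB-negative replicate 1 alone against SFB-positive libraries of both numbers, so SFB and replicate number cannot be told apart in it. Hist3h2a, Hist2h2be, Hist2h3c1 and Hist2h3c2 were highest in another library in each of clusters 0 to 4.

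The 5 genes of largest fitted fall in table cells were Hist2h2ab, Hist1h4h, Hist1h4d, Hist1h3e and Hist1h3f. Hist1h4h had 3.31 and 130.6 CPM in the SFB-negative and 3.19 and 11.9 in the SFB-positive libraries. Of the 60-base stretches in its last 300 annotated bases, 62.2% also occur in another histone gene, so its count is uncertain. Its log2 difference in edgeR with the block was -3.01 ± 0.30 (SE), with an adjusted p of 7.98e-20, and it was -0.06 within number 1 and -3.46 within number 2. The size of that p comes from a spread shared over all genes (the prior degrees of freedom were infinite and 1 residual degree of freedom was left), not from the spread of Hist1h4h. Hist1h4d fell by 2.92 ± 0.38 on the log2 scale and Hist1h3e by 2.85 ± 0.30, and DESeq2 with the same block called Hist1h3e alone (adjusted p = 1.26e-04), 1 of 65 histone genes, where 0.042% of all genes fell. Hist2h2ab, at 0.158 and 6.14, and 0.168 and 0.788 CPM, fell by 3.14 ± 0.53, and Hist1h3f by 2.71 ± 0.36.

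In cluster 3 the largest falls with the block were those of Hist1h4d (-3.40 ± 0.49, SE), Hist1h4h (-3.29 ± 0.40), Hist1h3e (-3.05 ± 0.41), Hist1h2af (-2.78 ± 0.47) and Hist1h3f (-2.77 ± 0.44). In cluster 0 they were those of Hist1h4d (-4.02 ± 0.48), Hist1h4h (-3.73 ± 0.35), Hist1h2bj (-3.20 ± 0.43), Hist1h3e (-3.19 ± 0.33) and Hist2h2bb (-3.14 ± 0.46). The annotated ends of Hist1h2af and Hist1h2bj are also shared in part with another histone gene (66.8% and 66.4% of 60-base stretches). Among cells with at most 2900 genes, an alternative added after seeing the data, the block gave 0 calls of 55 genes in table cells (0.0167% of all genes fell), 19 of 35 in cluster 0 (1.6%) and 2 of 17 in cluster 3 (0.149%). The median log2 differences there were -1.24, -1.40 and -1.16, against -1.29, -1.49 and -1.66 with the block in all cells, and cluster 3 kept 70 of 830 cells of SFB-positive replicate 2.

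Within number 2, 55 of 61 genes with at least 4 UMIs in both libraries were lower in the SFB-positive library over table cells, at a median log2 difference of -1.17; all genes had a median of 0.28 and 31.4% were lower. Within number 1, 8 of 32 were lower, at a median of 0.32, against -0.02 and 52.9% for all genes. In cluster 3, 54 of 61 were lower within number 2 (median -1.52), against 29.1% of all genes (median 0.34). Within number 1, 9 of 14 were lower (median -0.25), near the 56.9% of all genes (median -0.07). Single genes differed: Hist1h1e was at -1.91 within number 2 and 0.36 within number 1 over table cells, and Hist1h1c at 0.03 and 0.07.

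**Figure D4:**
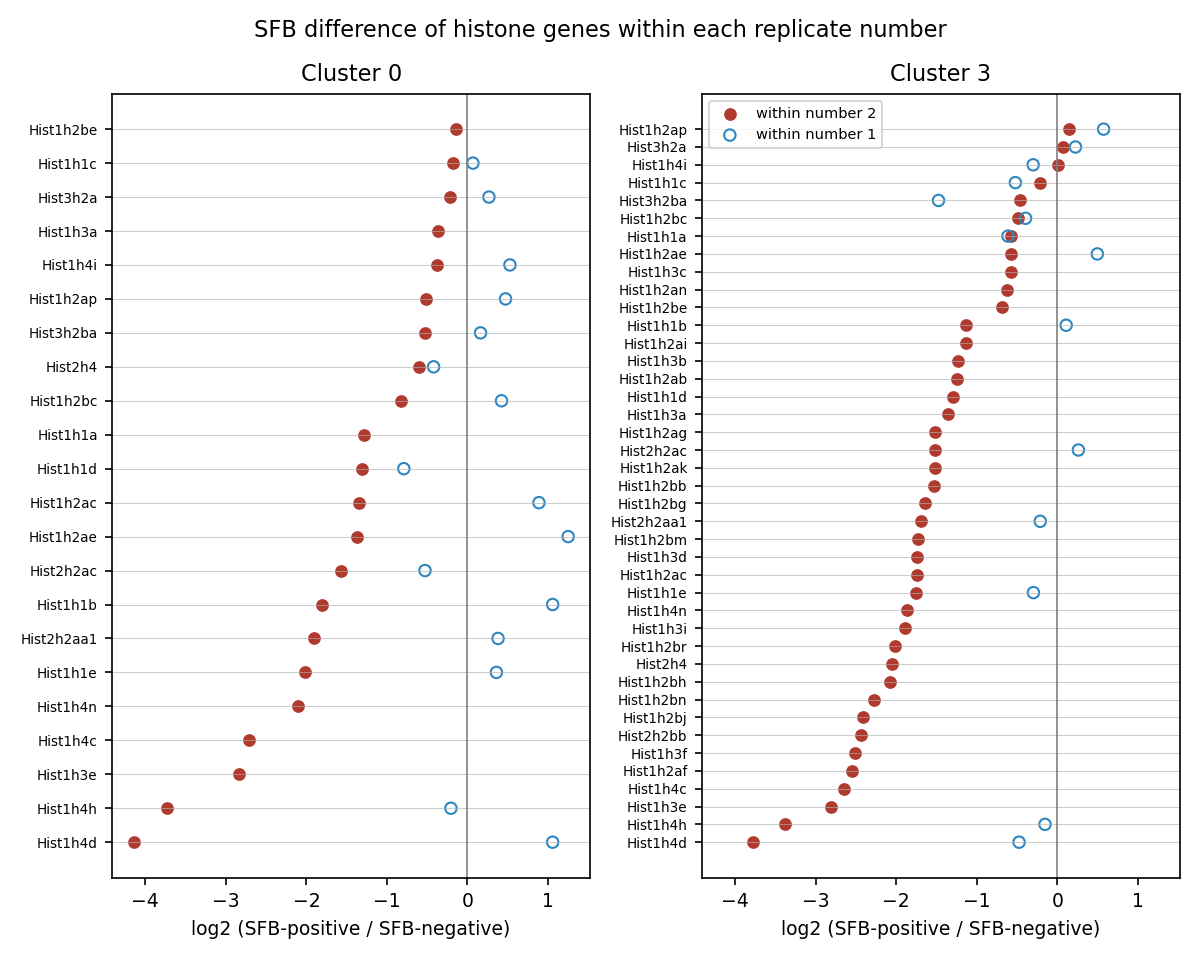
Log2 ratio of SFB-positive to SFB-negative CPM within each replicate number in cluster 0 and cluster 3, for histone genes with at least 50 UMIs in both replicate 2 libraries (filled: number 2; open: number 1, where both libraries had at least 4 UMIs). The filled points reach -4.14 and -3.77 for Hist1h4d, whereas the open points run from -0.79 to 1.25 in cluster 0 and from -1.47 to 0.58 in cluster 3.

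Hist1h3c was the single histone gene whose SFB difference was called different between clusters. In cluster 3 the replicate 2 libraries had 627 (SFB-negative) and 1077 UMIs (SFB-positive) of it; in cluster 0 it had 127 and 2, and none in the replicate 1 libraries. The counts of cluster 0 give a ratio of 69.0 (exact 95% interval 18.7 to 575.9, counting error only) between these libraries. The interaction term of edgeR, fitted with a term for each library, was 5.22 ± 0.73 (log2, SE), with an adjusted p of 1.47e-06; 1 of 53 histone genes and 0.0277% of all 10840 genes were called in this direction, and 0 of the 53 in the other, against 0.0185%. The call was lost without SFB-negative replicate 2 and without SFB-positive replicate 2.

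Cells of cluster 3 were then ranked by their share of S-phase list UMIs, which holds no clustered histone gene, and split into 3 equal parts, of which the highest (S-rich) was set beside the lowest (S-poor). Histone UMIs per 10000 were 2.02 in S-poor and 12.8 in S-rich cells of SFB-negative replicate 1, and 22.9 and 141.8 in those of replicate 2. The SFB-positive libraries had 3.59 and 13.2, and 6.41 and 47.2. All 4 libraries went the same way, with ratios of 6.31, 6.18, 3.67 and 7.36, a mean of 5.88 ± 1.56 (SD, n = 4). S-rich cells were deeper, with medians of 5442, 9774, 5147 and 21656 UMIs against 2838, 5586, 3286 and 11373. Thinned to 1500 UMIs a cell, the ratios were 3.90, 4.81, 3.62 and 4.76. For these ratios, cells under 1500 UMIs were left out and the others were ranked anew on their thinned counts. The gap between the replicate 2 libraries was similar in both parts: SFB-negative replicate 2 stood 3.58 times above SFB-positive replicate 2 among S-poor and 3.01 times among S-rich cells.

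The genes fell along a wide range. Of 39 histone genes with at least 50 UMIs in cluster 3 of both replicate 2 libraries and a ratio in each, 38 were higher in S-rich cells of both, 19 were above 5 in both and 12 above 10. The exception was Hist2h4, at 4.29 and 0.67. Hist2h4 and Hist3h2ba were named after their values were seen. Hist1h1a reached 28.7 in SFB-negative and 30.4 in SFB-positive replicate 2, Hist1h3c 17.8 and 34.8, Hist1h1b 16.7 and 23.8, Hist1h2ae 15.4 and 21.9, Hist1h2ab 12.4 and 57.2, and Hist1h2ap 13.7 and 25.3. Hist1h2bc, Hist3h2a, Hist3h2ba and Hist1h1c were under 2 in both, at 1.19 and 1.07, 1.17 and 1.61, 1.55 and 1.49, and 1.64 and 1.75. Hist1h1e, the gene also high in cluster 0, was at 2.80 and 3.55, and Hist1h4d at 7.55 and 8.07. Hist1h2ap and Hist1h2bc, the 2 genes with at least 50 UMIs in all 4 libraries, differed in the replicate 1 libraries too: Hist1h2ap had ratios of 116.7, from 1 S-poor UMI, and 7.79, and Hist1h2bc 1.59 and 0.30.

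**Figure D5:**
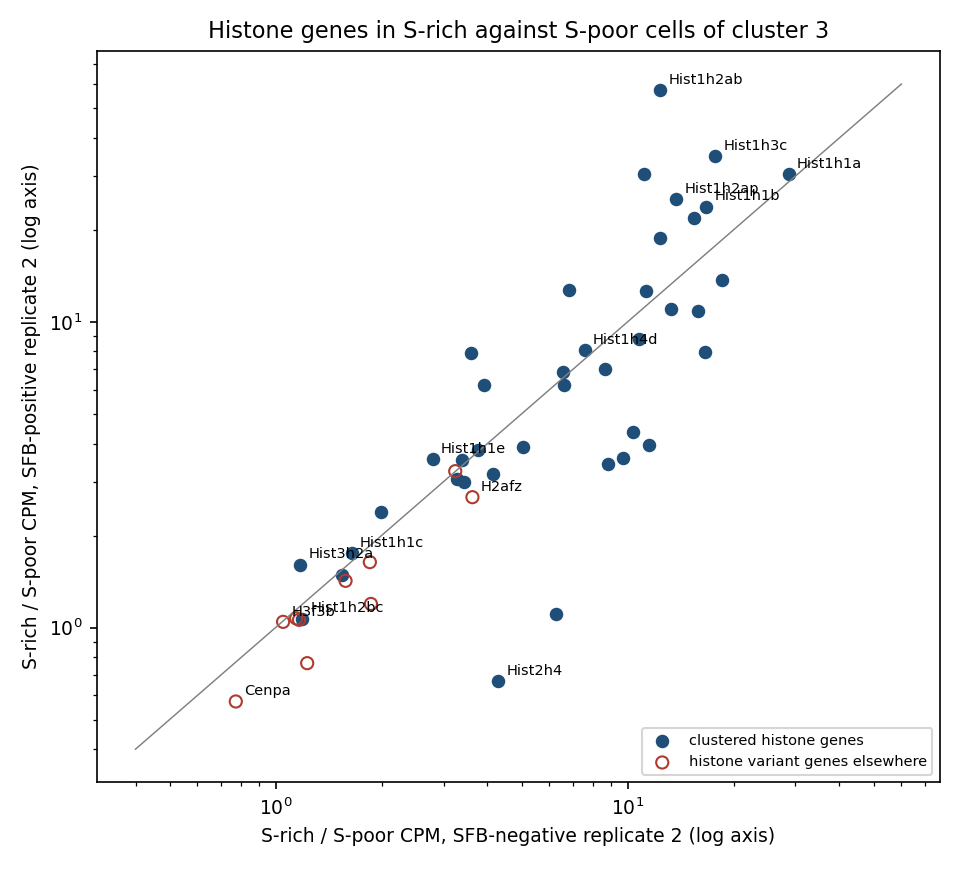
Ratio of CPM in S-rich to that in S-poor cells of cluster 3 (log axes) in SFB-negative replicate 2 (x) and SFB-positive replicate 2 (y), 1 point a gene with at least 50 UMIs in both; the line marks equal ratios. Hist1h1a, Hist1h1b and Hist1h3c lie above 10 in both libraries, whereas Hist1h2bc, Hist3h2a and Hist1h1c lie under 2; open points are histone variant genes, and Hist2h4 is below 1 in SFB-positive replicate 2.

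Histone variant genes outside the clusters spanned a range that overlaps that of the clustered genes in the same split, and the groups of genes were not compared by a test. The 10 with at least 50 UMIs in both replicate 2 libraries lay from 0.77 to 3.62 in the SFB-negative and from 0.57 to 3.25 in the SFB-positive one. H3f3a and H3f3b, which encode the replication-independent H3.3, were at 1.14 and 1.07, and at 1.05 and 1.04 in the replicate 2 libraries. H2afz, for the variant H2A.Z, was at 3.62 and 2.67, H2afx, for H2A.X, at 3.24 and 3.25, and Cenpa, for the centromeric H3, at 0.77 and 0.57. In the replicate 1 libraries, SFB-negative first, H2afx was at only 1.42 and 1.02, H2afz at 2.32 and 2.07, and Cenpa at 0.47 and 0.31. In the SFB comparison with the block in table cells, 1 of 10 tested variant genes rose, H1fx by 0.73 ± 0.22 (log2, SE; adjusted p = 0.0315 in edgeR), and 0 fell. In cluster 3, 0 of 10 were called. Of all genes, 0.929% rose and 2.68% fell in table cells, and 0.375% and 0.972% in cluster 3.

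Genes that make or handle histone mRNA and protein gave few calls. With the block, 0.929% of all genes rose and 2.68% fell in table cells. In cluster 3 the shares were 0.375% and 0.972%. Of 15 tested genes for histone mRNA processing and transcription, 0 were called in table cells with or without the block. Slbp had 567.7 and 183.5 CPM in cluster 3 of the SFB-negative and 642.9 and 265.7 in that of the SFB-positive libraries, so that, unlike most histone genes, it was lower in both replicate 2 libraries. Npat, a coactivator of histone transcription, had 11.7 and 34.8, and 25.3 and 59.6. Of 15 chaperone genes, which escort histones to DNA, Chaf1a rose by 0.99 ± 0.24 (adjusted p = 0.00215) in table cells with edgeR and the block, and 0 were called in cluster 3. Of 35 S-phase genes, Mcm10 and Rrm2 rose with the block in table cells, and 0 of 35 were called in cluster 3. Of 24 genes of G2 and mitosis, Cenpf, Cenpe, Mki67 and Kif11 rose with the block in table cells, and 0 of 24 were called in cluster 3. Cluster 3 held 148 of 4050 and 719 of 7731 table cells of the SFB-negative libraries. In the SFB-positive libraries it held 203 of 3408 and 830 of 7380. The part of these shares in the table-cell rises was not tested. Of the 5 ribosomal-RNA-linked transcripts, 4 fell in table cells, at a median log2 difference of -2.13 over the 5. Markers of other cells were scarce: T-cell genes summed to 0.105 to 0.230, myeloid to 1.54 to 2.06, epithelial to 0.087 to 0.289 and red-cell genes to 0.020 to 0.073 per 10000 UMIs of table cells. With the block 0 of 6 T-cell genes were called there, and Lyz2 (1 of 2 myeloid genes), Epcam (1 of 5 epithelial) and Hbb-bt (1 of 1 red-cell) fell. Their part in the histone difference was not tested.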

How the data were processed

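The deposited matrices hold whole-number UMI counts per gene and barcode, without normalization, per the file headers. Cell Ranger 5.0.1 and mm10 are named in the submitters' processing notes; the headers carry 6.0.0 and 7.0.0. The authors' table gives each cell's library code and cluster number (an other unit), its counts and its percent of mitochondrial UMIs; how cells were filtered, how doublets were treated and which annotation was counted is not given in the sources used here. Library codes were assigned through their group code and through cell barcodes listed in a single library's barcode file. Total UMIs were 7198366 and 47273320 in SFB-negative and 6979187 and 83600989 in SFB-positive replicates 1 and 2, so low counts limit the replicate 1 libraries.

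Counts were summed per library and class (table cells, clusters 0 to 4). SFB groups were compared with edgeR 4.0.16 (R 4.3.3; quasi-likelihood, robust, TMM, filterByExpr, Benjamini-Hochberg over all genes, limit 0.05), without and with replicate number as a block; DESeq2 1.42.0 was an alternative. The block follows the file headers and barcodes, not the labels; differences between numbers 2 and 1 correlated across genes between the groups (r = 0.89). Both models were tested on simulated data: with shifts between numbers as large as those measured, the model without the block called none of the changed genes, so its zeros carry little information. The simulation gave both numbers the same SFB change and every gene the same spread. The measured numbers differed in their SFB difference, so the simulation does not show how the model with the block performs on such data. Named genes were the 20 of highest mean level in cluster 3, the 10 in cluster 0, up to 5 called genes a direction and class, the extremes of the S-phase split among genes with at least 50 UMIs in every library (2 genes), genes highest outside SFB-negative replicate 2, and fixed lists. Other names were chosen after their values were seen. Members and lists were chosen with earlier results of these data known.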

Additional observations from a re-analysis of the deposited data

Results flagged for a closer look

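Hist1h3c differed between clusters in its SFB difference. The SFB difference in cluster 3 minus that in cluster 0 was 5.22 (log2; edgeR interaction term, adjusted p = 1.47e-06), with 108.5 against 72.7 CPM in the replicate 2 libraries of cluster 3 and 127 against 2 UMIs in those of cluster 0. Hist1h3c had at most 1 UMI in either cluster of each replicate 1 library.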

How the results depend on the processing

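With the replicate block, 30, 19, 11, 10, 27 and 8 histone genes were called in table cells and clusters 0 to 4, against 0 without it. With the block among cells of at most 2900 genes, chosen after seeing the data, 19 of 35, 7 of 32, 9 of 18, 2 of 17 and 3 of 13 were called in clusters 0 to 4 (1.6%, 0.567%, 0.506%, 0.149% and 0.188% of all genes fell) and 0 of 55 in table cells (0.0167%), at median log2 differences of -1.40, -1.32, -1.68, -1.16, -1.02 and -1.24. DESeq2 with the block was likewise added. It called 1 of 65 in table cells and 1 of 62 in cluster 0, where 0.042% and 0.0166% of all genes fell. In clusters 1 to 4 it called 0 of 63, 60, 64 and 60, where 0.00557%, 0.0123%, 0.011% and 0.0124% of all genes fell. Other scalings, no filter, DESeq2 without the block and leaving out single libraries gave 0 calls. The difference in summed histone level (SFB-positive minus SFB-negative, per 10000 UMIs) ranged, over libraries left out, from -28.6 to 6.01 in table cells, -20.2 to 2.53 in cluster 0, -25.9 to 4.62 in cluster 1, -17.7 to 2.03 in cluster 2, -60.3 to 11.7 in cluster 3 and -17.4 to 2.78 in cluster 4, positive only without SFB-negative replicate 2, where SFB-negative replicate 1 alone meets SFB-positive libraries of both numbers and SFB and number cannot be told apart. The median log2 difference ranged likewise from -3.29 to 2.02, -3.44 to 1.26, -3.02 to 1.70, -3.28 to 1.27, -3.98 to 2.19 and -4.23 to 2.19 in these classes. Single genes, also positive only without that library, ranged in table cells from -4.32 to 1.00 (Hist1h4h), -6.60 to 3.02 (Hist1h4d), -6.58 to 2.42 (Hist1h3e) and -9.94 to 3.09 (Hist1h3f), in cluster 0 from -6.37 to 3.31 (Hist1h4d), -4.46 to 0.73 (Hist1h4h) and -11.10 to 1.12 (Hist1h3e), and in cluster 3 from -6.50 to 2.19 (Hist1h4d), -4.49 to 1.13 (Hist1h4h) and -11.38 to 9.76 (Hist1h3e); fitted values against libraries at 0 UMIs are no bounds. Between clusters 3 and 0, 1 gene was called, and from 0 to 1 over libraries left out; Hist1h3c ranged from -3.28 without SFB-positive replicate 2, where the remaining SFB-positive library had 0 UMIs, to 5.36, and stood at 2.40 without SFB-negative replicate 2. Thinning moved the mean S-rich to S-poor ratio from 5.88 to 4.27, where S-rich cells were no longer deeper. Thinning also left out the shallowest cells and ranked the others anew on fewer UMIs. The part of each in the lower ratio was not tested. Beyond these, the cause was not tested. A fit that leaves out a library assumes that the lone library varies like the others.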
